A study of Mus musculus with 35 samples.

Results

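The granulocyte-monocyte progenitor (GMP) and the monocyte/macrophage and dendritic cell progenitor (MDP) are early bone marrow stages, and SMP is the name given in this series to a progenitor of the segregated-nucleus-containing atypical monocyte, SatM. The 2 early populations, with 1 array each, were set against the 4 arrays of SMP cells, titled SMP_1, SMP_2, SMP_WT_1 and SMP_WT_2. These 6 arrays, chosen by their titles, are part of a series of 35 Affymetrix arrays of mouse immune cells. All 6 hold total RNA of bone marrow cells from male C57BL/6J mice aged 8 weeks, stained with antibodies and sorted by flow cytometry. The surface markers used for the sort are not given in the sources used here, nor is what sets the WT-titled arrays apart from the numbered ones. The early arrays were pooled as 1 group of 2 for the main comparison, and each was also compared alone.

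Haematopoietic progenitors keep several lineage programmes at low level before they commit. GMP give rise to neutrophils, monocytes, basophils and eosinophils, and MDP to monocytes and dendritic cells. Commitment to the basophil lineage depends on the zinc finger factor GATA2 together with C/EBP factors. IRF8 directs the monocyte and dendritic cell route and restrains the granulocytic one.

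The deposited values are on a log2 scale and run from a floor of 2.30 to 16.02, and between 45.1% and 47.4% of probe sets sat at the floor in each of the 6 arrays. For 18193 genes, 1 probe set per gene was used. A gene is called on in an array at a value of at least 7 and off under 5. Values between these limits are neither. A difference is called where its limma adjusted p is under 0.05 and its size is at least 1 on the log2 scale. Pearson's r across genes, which are not independent replicates, was 0.977 between GMP and MDP, 0.927 to 0.970 among the SMP arrays, 0.857 to 0.900 between SMP and GMP, and 0.870 to 0.905 between SMP and MDP. The labels do not say whether replicate arrays came from separate animals, so p-values measure only the spread between samples. In the main fit that spread came from these 6 arrays and from arrays of other cell types. These were common monocyte progenitors, inflammatory monocytes, SatM, Basophils, Eosinophils and Neutrophils.

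The 4 genes taken as markers of SMP were all on in both early arrays, and only Gata2 and Mcpt8 were higher in SMP. Gata2, the haematopoietic GATA factor, had a value of 9.40 in GMP and 8.62 in MDP, against 14.35, 14.42, 14.86 and 14.24 in SMP_1, SMP_2, SMP_WT_1 and SMP_WT_2. Mcpt8, the basophil granule protease, stood at 11.98 in GMP and 12.17 in MDP and at 14.91, 14.72, 14.65 and 14.57 in the SMP arrays in the same order. All 4 SMP arrays lay above both early arrays for both genes. The difference, SMP minus pooled early, was 5.46 (SE 0.37, limma adjusted p = 6.72e-08) for Gata2 and 2.64 (SE 0.44, limma adjusted p = 0.000268) for Mcpt8.

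Prg2 and Cd34, the other two, went the opposite way. Prg2, the eosinophil major basic protein, had values of 11.47 in GMP and 12.57 in MDP against 10.64, 6.94, 6.61 and 8.38 in SMP. Cd34, the sialomucin of stem and progenitor cells, had 11.51 in GMP and 11.13 in MDP against 7.45, 7.11, 7.60 and 6.35. Every SMP array was below both early arrays for both genes, and SMP_1 held the most Prg2 of the SMP arrays. The difference was -3.88 (SE 0.80, limma adjusted p = 0.0015) for Prg2 and -4.19 (SE 0.45, limma adjusted p = 6.91e-06) for Cd34. In a fit of the 6 arrays alone the adjusted p of Prg2 was 0.0573. Cd34 averaged 7.13 in SMP against 10.18 in cMoP, so that it was lower in SMP than in the other progenitors. Prg2 averaged 8.14 in SMP, above 2.30 in cMoP and below 14.08 in Eosinophils.

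**Figure D1:**
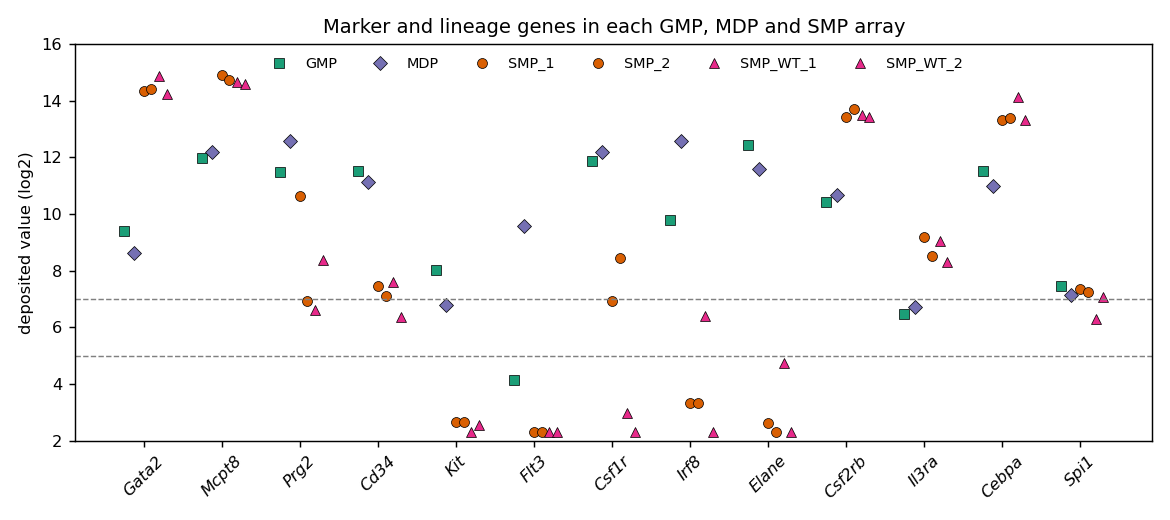
Deposited log2 value (vertical axis) of the 4 genes taken as SMP markers and 9 lineage genes (horizontal axis) in GMP (square), MDP (diamond), the numbered SMP arrays (circles) and the WT-titled SMP arrays (triangles), with dashed lines at 5 and 7. Gata2, Mcpt8, Csf2rb, Il3ra and Cebpa are higher in all 4 SMP arrays than in GMP and MDP, Prg2, Cd34, Kit, Csf1r, Irf8 and Elane are lower in all 4, and Spi1 overlaps.

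The names of the cells were set against lists of lineage genes. GMP and MDP both had 10 of 10 primary granule genes on and each SMP array had 8, so this list does not set GMP apart from MDP. MDP had 7 of 11 dendritic cell genes on, against 2 of 11 in GMP. Flt3, the receptor that marks MDP, was on in MDP at 9.59 and off in GMP at 4.14. In the SMP arrays, 14 of 16 basophil and mast cell genes were on in every array, while between 2 and 7 of 16 monocyte genes were on. Ccr2 and Emb, a chemokine receptor and a cell adhesion protein, were the 2 monocyte genes on in all 4. The label calls SMP a monocyte progenitor, and by these lists its arrays held nearly the whole basophil and mast cell list and few monocyte genes. The lists were chosen with earlier results of these data known, and SMP is used here as the name of the arrays only. In sorted bulk RNA, fewer cells of a type and less RNA per cell cannot be told apart.

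To ask which genes of SMP were already on earlier, SMP genes were taken as those on in all 4 SMP arrays and off in all 4 arrays of the common monocyte progenitor (cMoP), without use of GMP or MDP. The rule found 107 of 18193 genes. Of these, 8 were on in both GMP and MDP (7.48%), 9 were on in only 1 of them, 29 were at intermediate or mixed levels without being on, and 61 were off in both (57.0%). For comparison, 30.7% of all 18193 genes were on in both early arrays and 53.2% were off in both. The 107 genes had to be off in cMoP and all genes did not, so these shares are not like for like. Without the cMoP requirement, 89.1% of genes on in all 4 SMP arrays were on in both early arrays. Just inside the limit were Dnajc6 at 7.06 in MDP and Lpcat2 at 7.13 in GMP, and just outside it Csrp3 at 6.98 in MDP and Tuba8 at 6.94 in GMP. With a limit of 6 for on, 18 of 163 SMP genes were on in both early arrays, and with a limit of 8, 2 of 73. By the numbered SMP and cMoP arrays alone the count was 14 of 186, and by the WT-titled ones 10 of 171.

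The 8 SMP genes on in both early arrays were Gata2, Cdh1, Ms4a2, Fcer1a, Cpa3, Far2, Adgrg1 and Dnajc6. Among them are both receptor chains that are particular to the high-affinity IgE receptor and a granule protease. In 1 bulk array each, a low level in most cells and a high level in a few cannot be told apart. Since the rule set their SMP level, nothing is read from their being high in SMP, and their values are a description. Ms4a2, the beta chain of the IgE receptor, had a value of 9.78 in GMP and 8.40 in MDP, against 13.38, 13.60, 12.95 and 13.66 in SMP and 2.30, the floor, on average in cMoP. Fcer1a, its alpha chain, had 7.64 in GMP and 8.69 in MDP, against 13.46, 13.06, 12.56 and 13.59 in SMP and 2.30 in cMoP. The 2 chains thus ranked GMP and MDP in opposite order. Both stood above cMoP by the choice of genes off in cMoP and on in both early arrays, so nothing is read from that. With Gata2, Ms4a2 was 1 of the 2 genes still on in both early arrays at the limit of 8.

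Cpa3, the carboxypeptidase A of mast cell and basophil granules, had a value of 10.51 in GMP and 7.50 in MDP, against 13.13, 13.73, 11.46 and 12.14 in SMP. GMP thus lay within 1 unit of the lowest SMP array, SMP_WT_1. Cdh1, the adhesion protein E-cadherin, had 7.55 in GMP, 7.87 in MDP and 13.46, 13.50, 13.32 and 13.36 in SMP. Far2, a fatty acyl-CoA reductase, had 9.66 in GMP, 7.74 in MDP and 11.84, 10.60, 11.22 and 11.45 in SMP. Adgrg1, an adhesion G protein-coupled receptor, had 7.93 in GMP, 7.42 in MDP and 9.30, 9.15, 9.25 and 8.58 in SMP. For each of these 4 genes both early arrays were below all 4 SMP arrays. Dnajc6, the clathrin uncoating cofactor auxilin, had 9.19 in GMP, 7.06 in MDP and 8.80, 9.25, 9.47 and 8.42 in SMP. GMP fell inside the SMP range, and Dnajc6 alone of the 107 was not called higher in SMP, as 11.1% of all genes tested were (difference 0.86, and 1.92 and called without the GMP array).

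**Figure D2:**
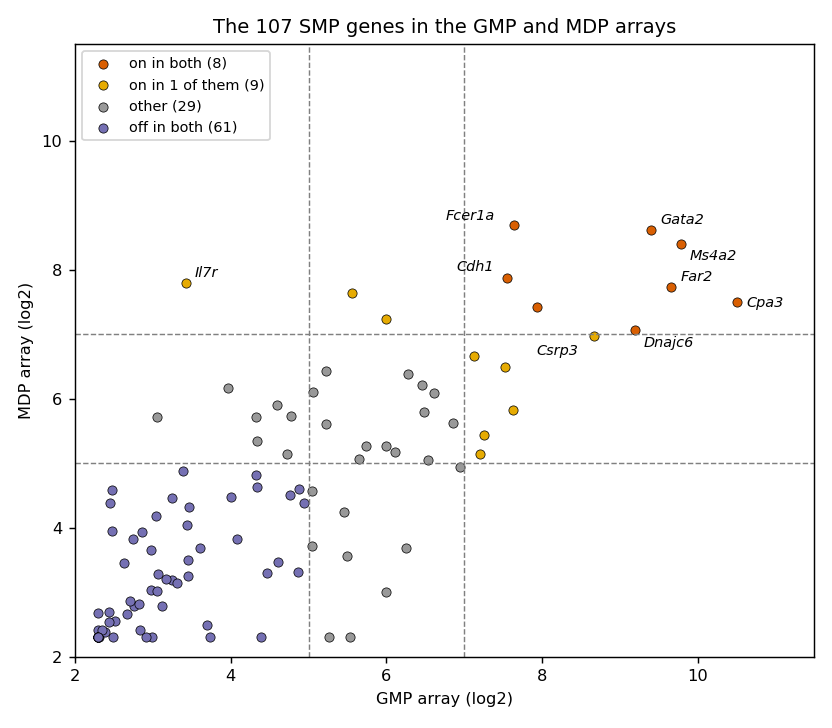
Log2 value of each of the 107 SMP genes in the GMP array (horizontal axis) and the MDP array (vertical axis), with dashed lines at 5 and 7 and colours for the 8 genes on in both, the 9 on in 1 of them, the 61 off in both and the other 29. Most points lie at the lower left, near the floor, and Gata2, Ms4a2, Cpa3 and Far2 lie farthest to the upper right.

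Promoter windows of 3 genes on in both early arrays and 2 genes off in both are shown to set the SMP genes' start sites side by side. Each window holds 250 bases before and 50 bases after the start (RefSeq, GRCm38.p6, gene strand). Capitals mark the letters AGATAA or TGATAA, or with a final G in place of the last A, AGATAG or TGATAG, the core read by GATA factors, on either strand. The windows are Ms4a2 at chr19:11623670-11623969 (minus strand), Fcer1a at chr1:173227180-173227479 (minus), Cpa3 at chr3:20242132-20242431 (minus), C3ar1 at chr6:122856108-122856407 (minus) and Csf1 at chr3:107760420-107760719 (minus).
Ms4a2: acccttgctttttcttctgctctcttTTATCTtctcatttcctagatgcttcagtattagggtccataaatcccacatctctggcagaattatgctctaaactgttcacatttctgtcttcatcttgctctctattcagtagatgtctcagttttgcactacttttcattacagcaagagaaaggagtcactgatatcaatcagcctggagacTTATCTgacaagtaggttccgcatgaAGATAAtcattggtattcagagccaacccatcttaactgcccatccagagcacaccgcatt
Fcer1a: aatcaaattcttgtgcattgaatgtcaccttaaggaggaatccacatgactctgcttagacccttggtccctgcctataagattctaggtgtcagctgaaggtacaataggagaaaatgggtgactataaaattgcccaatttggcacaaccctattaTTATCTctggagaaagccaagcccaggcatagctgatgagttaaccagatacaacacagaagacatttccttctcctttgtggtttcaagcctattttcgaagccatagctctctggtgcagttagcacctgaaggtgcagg
Cpa3: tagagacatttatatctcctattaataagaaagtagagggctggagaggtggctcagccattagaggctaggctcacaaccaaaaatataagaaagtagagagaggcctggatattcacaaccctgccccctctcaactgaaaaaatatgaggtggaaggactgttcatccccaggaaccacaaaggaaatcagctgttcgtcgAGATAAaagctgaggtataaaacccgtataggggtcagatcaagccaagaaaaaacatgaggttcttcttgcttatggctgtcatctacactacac
C3ar1: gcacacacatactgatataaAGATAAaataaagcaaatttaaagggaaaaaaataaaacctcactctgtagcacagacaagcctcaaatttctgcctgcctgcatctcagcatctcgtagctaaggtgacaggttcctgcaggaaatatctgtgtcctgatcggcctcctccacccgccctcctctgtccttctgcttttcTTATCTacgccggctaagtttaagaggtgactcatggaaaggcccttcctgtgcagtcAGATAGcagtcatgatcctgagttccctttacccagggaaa
Csf1: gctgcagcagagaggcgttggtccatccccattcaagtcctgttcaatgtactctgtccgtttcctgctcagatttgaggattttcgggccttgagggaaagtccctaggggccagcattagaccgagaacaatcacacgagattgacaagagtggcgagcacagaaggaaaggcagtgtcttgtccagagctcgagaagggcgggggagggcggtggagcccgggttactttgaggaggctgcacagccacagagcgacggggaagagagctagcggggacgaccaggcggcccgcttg

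Ms4a2 holds 3 such matches, Fcer1a 1 and Cpa3 1, the last starting 46 bases before the start site. C3ar1, off in both early arrays, also holds 3, and Csf1 holds 0. Among genes whose windows are not printed, both windows of Gata2, on in both early arrays, held 0 matches, and both windows of Il4, off in both, held 1 each. Windows were found for 82 of the 107 SMP genes. Of their 111 windows, 32 (28.8%) held a match, close to the 29.8% of all 32851 windows in the table. The share was 33.3% of 18 windows for SMP genes on in GMP or MDP and 26.2% of 61 windows for those off in both. A match is a run of letters and not a measured binding site.

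The 9 SMP genes on in only 1 early array were split 6 to 3. Csrp3, Slc18a2, Lpcat2, Kcnq5, Rnf125 and Angpt1 were on in GMP only, and Il7r, Rab37 and Cd72 in MDP only. Csrp3, a muscle LIM protein, had a value of 8.67 in GMP and 6.98 in MDP, against 13.61, 13.35, 11.55 and 12.84 in SMP. Slc18a2, the vesicular monoamine transporter that loads histamine into granules, had 7.63 in GMP and 5.83 in MDP, against 11.51, 11.28, 9.89 and 11.40. Il7r, the interleukin-7 receptor chain that also forms the TSLP receptor, had 3.42 in GMP and 7.80 in MDP, against 11.49, 12.02, 10.44 and 10.43. It was the only SMP gene on in 1 early array and off in the other. Angpt1, the ligand of the Tie2 receptor, had 7.20 in GMP and 5.15 in MDP, against 9.22, 8.72, 7.01 and 8.50, so that SMP_WT_1 lay below GMP. Over all 107 genes GMP was the higher of the early arrays for 52, MDP for 45, and they were equal for 10, by the unrounded deposited values.

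Among the 61 SMP genes off in both early arrays were cytokines, chemoattractant receptors and transporters. Il4, the cytokine of type 2 immunity made by basophils, had a value of 2.49 in GMP and 2.30 in MDP, against 9.96, 9.70, 9.98 and 9.82 in SMP. Csf1, the growth factor of macrophages, had 4.61 in GMP and 3.47 in MDP, against 11.87, 11.45, 11.75 and 12.50. Hgf, hepatocyte growth factor, had 3.24 in GMP and 3.19 in MDP, against 9.39, 9.04, 10.05 and 11.58. For these 3 secreted factors every SMP array was above both early arrays by more than 4 units. The 61 genes were chosen as on in SMP and off in both early arrays, so nothing is read from such a gap.

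Among receptors, C3ar1, which binds the complement fragment C3a, had a value of 3.46 in GMP and 4.32 in MDP, against 11.89, 11.55, 11.06 and 10.92 in SMP. Cxcr2, a chemokine receptor best known from neutrophils, had 2.44 in GMP and 2.70 in MDP, against 10.63, 10.86, 10.14 and 10.71. Ptger3, a prostaglandin E2 receptor, had 4.76 in GMP and 4.51 in MDP, against 9.85, 10.06, 11.42 and 10.67. These 3 were likewise chosen as on in SMP and off in both early arrays, so the gap is set by that choice. Gpc4, a cell surface heparan sulfate proteoglycan, had 2.76 in GMP and 2.78 in MDP, against 10.87, 10.96, 10.65 and 11.35, with the 2 early values alike. Ikzf3, the lymphoid factor Aiolos, had 3.61 in GMP and 3.68 in MDP, against 10.41, 10.53, 9.80 and 9.60. The others of the 10 most abundant of the 61 were Slc6a9, the glycine transporter, Aqp9, an aquaglyceroporin, and Tulp3, a protein of cilia, with SMP means of 11.25, 11.19 and 10.83.

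The 107 SMP genes were also looked up in mature cells that the rule did not use. In both arrays of spleen Basophils, 92 of the 107 were on (86.0%), against 30.3% of all genes, and in both SatM arrays 7 were on (6.54%), against 28.1% of all genes. In both Eosinophils arrays 35 were on (32.7%, against 30.2% of all genes). The 107 genes had to be on in SMP and off in cMoP, which all genes did not, so these shares are not like for like. Of the 17 genes on in GMP or MDP, all 17 were on in both Basophils arrays, and of the 61 off in both early arrays, 47 were (77.0%). Median SMP level differed too, at 12.89 for genes on in both early arrays, 10.05 on in only 1 and 9.23 off in both. Ms4a2, Fcer1a and Cpa3 had Basophils means of 13.80, 13.75 and 13.88, above each of their SMP arrays. Gata2 had 13.88 there, below each of its SMP arrays.

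Most genes on in SMP were shared with the early stages. Of 4110 genes on in all 4 SMP arrays (22.6% of all genes), 3660 (89.1%) were on in both GMP and MDP and 94 (2.29%) were off in both. Conversely, 5583 genes were on in both early arrays, of which 109 (1.95%) were off in all 4 SMP arrays. The 109 included the primary granule protease genes Elane and Prtn3, the monocyte genes Ly86, Tifab and S100a4, and the interleukin-6 receptor chains Il6ra and Il6st. All 4 cMoP arrays had 60 of the 109 on. The share of all genes on in cMoP is not given here, so nothing is read from this count. Hoxa9, a stem and progenitor homeobox gene, and Prg3, a second major basic protein of eosinophils, were the only 2 that were off in all 4 cMoP arrays as well. Hoxa9 had 8.23 in GMP, 7.55 in MDP and 4.70, 2.30, 2.30 and 4.97 in SMP. Prg3 had 7.42 in GMP, 8.27 in MDP and 3.93 in SMP_1, with the other 3 SMP arrays at the floor.

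Across the 12077 genes tested, 4226 differed between SMP and pooled GMP and MDP, by the limits given above. A gene was tested if above the array median in at least 2 arrays of the fit, so it could lie near the floor here. Vwf, for example, was called lower with 3.23 in GMP, 3.77 in MDP and 2.30 in SMP. Higher in SMP were 1346 genes (11.1% of those tested) and lower were 2880 (23.8% of those tested), and the median difference over all 12077 genes was -0.18. All SMP arrays lay above both early arrays for 15.7% of the genes tested and below both for 30.1%. Leaving out the GMP array reduced the genes called lower to 1892, and a fit of the 6 arrays alone called 2489 in all. Of the 107 SMP genes, 106 were called higher in SMP, a count from which nothing is read because the rule used the SMP arrays.

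**Figure D3:**
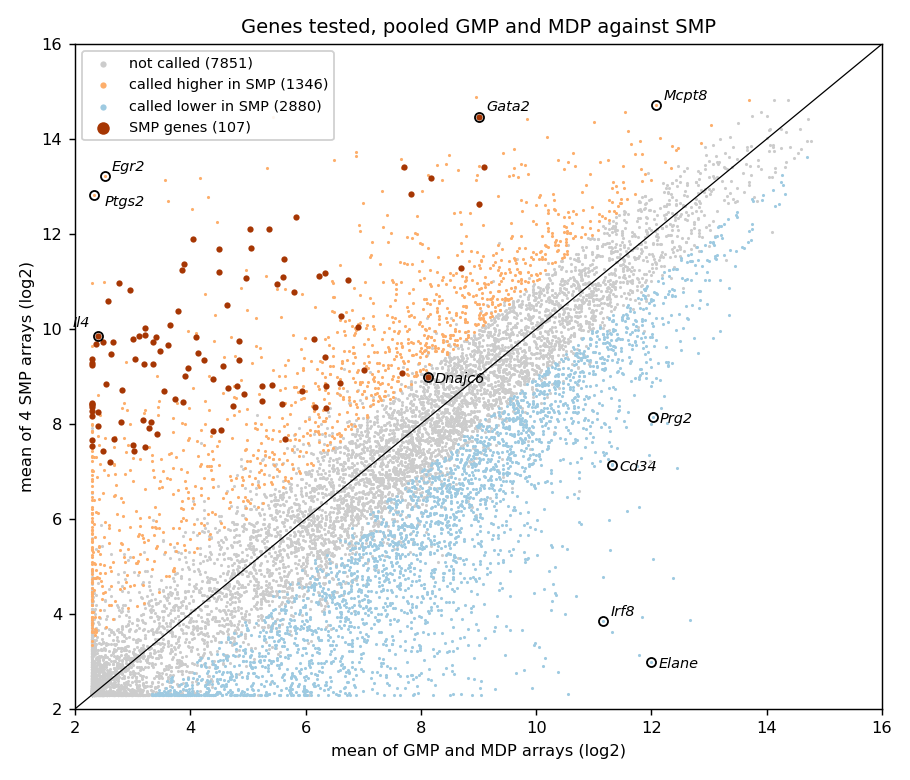
Mean log2 value of the GMP and MDP arrays (horizontal axis) against the mean of the 4 SMP arrays (vertical axis) for 12077 genes, coloured by call (1346 higher and 2880 lower in SMP), with the 107 SMP genes as larger points and the line of equal values. Egr2, Ptgs2 and Il4 lie at the upper left, near the floor in the early arrays, and Elane and Irf8 lie at the lower right.

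The 10 largest rises were Egr2, Ptgs2, Ccl4, Il6, Egr1, Rgs1, Cxcl2, Adam8, Egr3 and Fosb. Egr1, Egr2, Egr3 and Fosb encode transcription factors, Ccl4 and Cxcl2 chemokines, Il6 a cytokine and Adam8 a metalloprotease. Where an early array sat at or near the floor, as for Ptgs2, Cxcl2 and Egr3, the size of the rise is limited by the floor, and no order is read among the 10. Egr2, an early growth response factor, had a value of 2.60 in GMP and 2.42 in MDP, against 13.31, 11.43, 14.30 and 13.79 in SMP (difference 10.70, SE 1.24, limma adjusted p = 1.32e-05). Ptgs2, the inducible cyclooxygenase, had 2.30 in GMP and 2.34 in MDP, against 12.82, 12.40, 12.97 and 13.04 (limma adjusted p = 3.57e-06). The chemokine gene Cxcl2 was at the floor in both early arrays and had 11.73, 9.95, 11.09 and 11.05 in SMP, at least 404-fold higher when set against the floor (limma adjusted p = 0.000137). Il6 rose by 9.08 and Rgs1, a regulator of G protein signalling, by 9.02. Egr3 was less even, at 11.87, 6.92, 12.85 and 12.30 in SMP against 2.30 in GMP and 2.70 in MDP. Genes were ranked among those whose SMP arrays all lay on 1 side of both early arrays.

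The 10 largest falls were Elane, Prtn3, Ly86, Tifab, Alcam, Cnn3, BC035044, Ptgr1, Ifi209 and Irf8. The floor limits the size of these falls as well. Elane, neutrophil elastase, had a value of 12.42 in GMP and 11.58 in MDP, against 2.61, 2.30, 4.73 and 2.30 in SMP (difference -9.01, SE 0.68, limma adjusted p = 2.14e-07). Prtn3, proteinase 3, had 13.22 in GMP and 12.11 in MDP, against 3.39, 4.64, 4.70 and 2.75 (difference -8.80, SE 0.62, limma adjusted p = 9.66e-08). Irf8 had 9.77 in GMP and 12.56 in MDP, against 3.32, 3.32, 6.41 and 2.30 (difference -7.32, SE 0.97, limma adjusted p = 4.3e-05). All 3 were off in SMP except Irf8 in SMP_WT_1, which was between the limits. Ly86, which pairs with a Toll-like receptor homologue, fell by 8.65, Tifab, a TRAF-interacting adaptor, by 8.23, and Alcam, an adhesion molecule, by 7.92.

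Genes of the basophil and mast cell list rose. All 14 of its tested members were called higher in SMP (14 of 16 on the arrays were tested), with a median difference of 5.23 beside -0.18 for all genes. This and the other lists were chosen with earlier results of these data known, so their counts are a description. Counts for this and the following lists stand beside 11.1% higher and 23.8% lower among all genes tested. The list had 9 members on in GMP and 9 in MDP. Hdc, the enzyme that makes histamine, had a value of 10.76 in GMP and 8.47 in MDP, against 13.39, 13.60, 13.89 and 14.26 in SMP (difference 4.17, limma adjusted p = 1.86e-05). Cd200r3, an activating receptor of basophils and mast cells, had 5.23 in GMP and 6.43 in MDP, against 12.81, 12.72, 11.75 and 12.15 (difference 6.53, limma adjusted p = 8.48e-09). Both genes were lower in each early array than in any SMP array. Of the 14 tested members, 9 were on in both early arrays, among them Mcpt8, Hdc and Gata2, and 3, Il4, Hgf and Ccl4, were off in both. The other two, Cd200r3 and Alox5, were between the limits in both. Without the MDP array Cpa3 was no longer called (difference 2.11, adjusted p = 0.0821), and without the GMP array neither was Fcer1g, the signalling chain of the receptor (0.77, adjusted p = 0.173).

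The eosinophil list did not move one way. Of its 7 tested members, Alox15 and Ccr3 were called higher and Prg2, Prg3 and Epx lower in SMP, with a median difference of 0.40. Epx, eosinophil peroxidase, had a value of 9.08 in GMP and 10.66 in MDP, against 8.20, 6.81, 7.77 and 5.83 in SMP, and its call was lost without the MDP array (adjusted p = 0.103). Ccr3, the eotaxin receptor, was at the floor in both early arrays and had 8.35, 7.77, 5.59 and 7.53 in SMP, at least 32.3-fold higher when set against the floor. Alox15, the 12/15-lipoxygenase, had 4.33 in GMP and 5.72 in MDP, against 12.41, 12.50, 11.60 and 11.93. Il5ra, the interleukin-5 receptor chain that defines eosinophil progenitors, was at the floor in GMP, MDP and 3 SMP arrays and 3.89 in SMP_2. Summed over the 7 genes, the log2 level was 11.98 in GMP, 12.99 in MDP and 11.81 to 13.08 in SMP.

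Few neutrophil granule genes were called. Of 10 primary granule genes, 2 (Elane and Prtn3) were called lower and 0 higher, with a median of -1.16, a share near the 23.8% of all genes called lower. Mpo, myeloperoxidase, stayed on, at 14.37 in GMP and 13.80 in MDP against 12.36, 11.64, 11.93 and 12.22 in SMP (difference -2.05, limma adjusted p = 0.168, but 0.00595 in a fit of the 6 arrays alone). Ctsg, cathepsin G, had 14.36 in GMP and 13.30 in MDP against 13.36, 13.36, 11.70 and 12.35 (difference -1.14, limma adjusted p = 0.229). All 4 SMP arrays were below both early arrays for Mpo, while for Ctsg SMP_1 and SMP_2 passed MDP. Of 12 secondary and tertiary granule genes, 2 were called higher and 1 lower, with a median of 0.38. SMP_WT_1 stood apart in them, with 10 of 12 on against 4 in the SMP array with fewest. Ngp, a neutrophil granule protein, was 11.30 there and 8.21, 7.49 and 6.53 in the other SMP arrays, and Camp, the cathelicidin precursor, was 10.11 there and 6.25, 6.36 and 6.76 in the others. The part of these genes in the comparison was not tested.

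**Figure D4:**
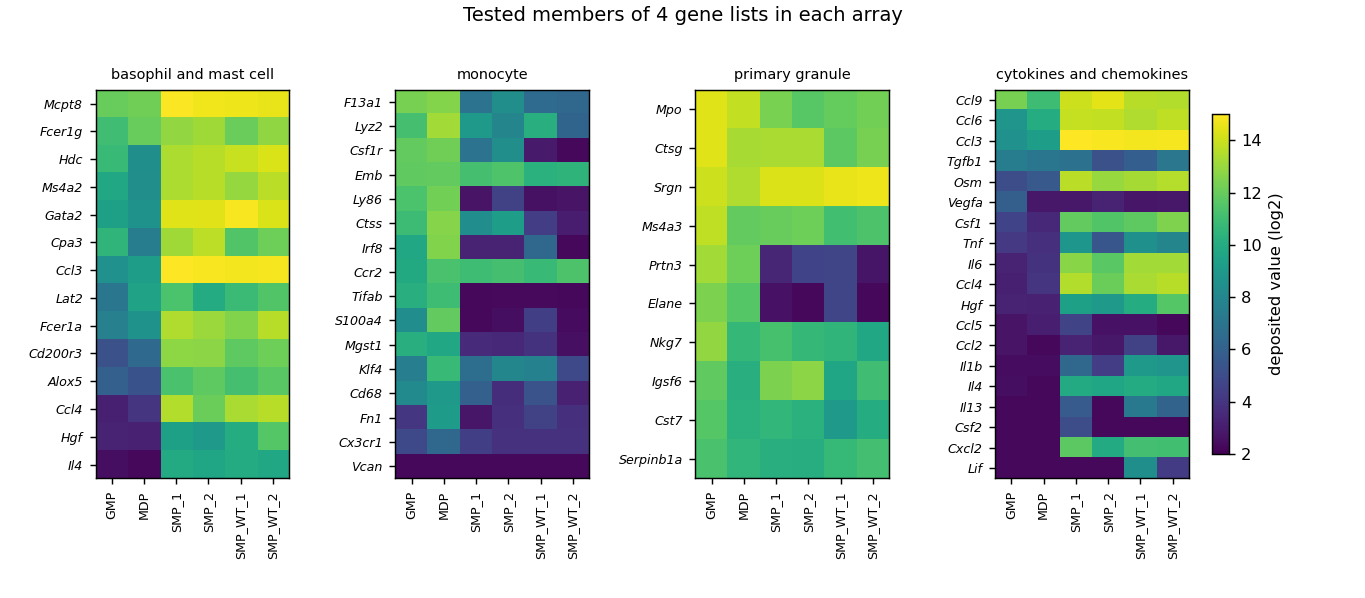
Log2 value (colour) of the tested members of the basophil and mast cell, monocyte, primary granule, and cytokine and chemokine lists (rows, ordered by the mean of GMP and MDP) in GMP, MDP and the 4 SMP arrays (columns). The basophil genes are brighter in SMP from top to bottom, the primary granule genes stay bright except Elane and Prtn3, and most monocyte genes are dark in SMP.

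Most monocyte genes fell. Of 16 tested, 14 were called lower and 0 higher in SMP, with a median of -4.73, and 9 were called lower and 1 higher without the MDP array. Csf1r, the receptor of macrophage colony-stimulating factor, had a value of 11.87 in GMP and 12.19 in MDP, against 6.93, 8.44, 2.96 and 2.30 in SMP (difference -6.87, SE 1.29, limma adjusted p = 0.000726). The numbered SMP arrays held more of it than the WT-titled ones, and none came near the early arrays. S100a4, a calcium-binding protein, fell by 7.22. Ccr2 was kept, at 9.90 in GMP, 11.28 in MDP and 10.97, 11.19, 10.79 and 11.35 in SMP (difference 0.49, limma adjusted p = 0.295, but 1.18 with adjusted p = 0.0212 without the MDP array).

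Flt3, of the dendritic cell list, was at the floor in all 4 SMP arrays. It was at least 23.7-fold lower than the early mean when set against the floor (limma adjusted p = 0.00158, and 0.0573 in a fit of the 6 arrays alone). The difference was -7.30 against MDP and -1.84 against GMP. Of all genes tested, 23.8% were called lower and 11.1% higher. Of 10 dendritic cell genes, 4 were called lower (1 in a fit of the 6 arrays alone) and 0 higher in SMP (median -1.87). This count was 7 without the GMP array and 2 without the MDP array. Of 13 genes of MHC class II presentation, 6 were called lower and 3 higher (median -2.66), with 1 lower without the MDP array. H2-Oa and H2-Ob, the chains of the DO chaperone that modulates peptide loading, were higher in SMP. H2-Oa had 6.13 in GMP and 6.88 in MDP against 11.29, 11.10, 9.49 and 9.51 (difference 3.85, limma adjusted p = 0.00025). H2-Ob had 5.91 in GMP and 7.62 in MDP against 9.57, 10.23, 9.75 and 11.17 (difference 3.42, limma adjusted p = 0.00139). Ifi30, a lysosomal thiol reductase, fell by 4.28. Ctss and H2-DMb2 were also called lower, with differences of -5.53 and -4.15. H2-Aa, a classical chain, was called lower (difference -4.0, limma adjusted p = 0.0133). It had 5.90 in GMP and 10.54 in MDP against 4.53, 4.13, 4.83 and 3.39 in SMP. H2-Ab1, also a classical chain, had a difference of -1.35 and was not called (limma adjusted p = 0.25).

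Growth factor and cytokine receptors divided, with 8 of 20 called higher, 9 lower and a median of -0.25. Kit, the stem cell factor receptor, had a value of 8.03 in GMP and 6.79 in MDP, against 2.67, 2.67, 2.30 and 2.56 in SMP (difference -4.86, SE 0.59, limma adjusted p = 2.12e-05). Il6st, the shared gp130 chain, fell by 5.61, Csf3r, the granulocyte colony-stimulating factor receptor, by 3.68, and Csf2ra, the alpha chain of the GM-CSF receptor, by 2.74. The receptors of interleukin-3 went the other way. Csf2rb, the beta chain shared by the receptors of interleukin-3, interleukin-5 and GM-CSF, had 10.43 in GMP and 10.66 in MDP, against 13.42, 13.69, 13.50 and 13.42 (difference 2.96, SE 0.18, limma adjusted p = 2.32e-08). Csf2rb2, the interleukin-3-specific beta chain of the mouse, rose by 5.18 and Il3ra, the alpha chain, by 2.17 (limma adjusted p = 0.00408). Csf2rb and its close copy Csf2rb2 are near-identical in sequence, so their probe sets may share signal. Il18r1, the interleukin-18 receptor, had 3.96 in GMP and 6.16 in MDP, against 11.76, 12.68, 11.10 and 11.27.

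Of 21 myeloid transcription factors, 10 were called higher and 5 lower in SMP (median 1.66). Cebpa, which opens the granulocyte programme, had a value of 11.51 in GMP and 10.98 in MDP, against 13.32, 13.40, 14.14 and 13.33 in SMP (difference 2.30, SE 0.30, limma adjusted p = 3.99e-05). Gata1, the GATA factor of erythroid cells, mast cells, basophils and eosinophils, was off in GMP at 4.46 and in MDP at 3.08 and had 8.80, 9.39, 8.60 and 6.97 in SMP (difference 4.67, SE 0.52, limma adjusted p = 8.4e-06). Gata1 thus differed from Gata2, which was on in both. Cebpb rose by 1.73 and Runx1, a core haematopoietic factor, by 2.73. Spi1, which encodes PU.1, had 7.44 in GMP and 7.12 in MDP against 7.36, 7.25, 6.28 and 7.08, and was not called (difference -0.29, limma adjusted p = 0.507). Mitf, a factor of mast cells and melanocytes, had 9.11 in GMP and 8.52 in MDP against 5.25, 2.30, 2.45 and 3.36 (difference -5.47, SE 0.70, limma adjusted p = 3.3e-05).

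Of 17 stem and progenitor genes, 3 were called higher and 8 lower in SMP (median -1.06), with 1 higher without the MDP array and 5 lower without the GMP array. Gfi1b, a transcriptional repressor that acts in erythroid and megakaryocyte cells, rose by 4.23. Myb, a factor of proliferating progenitors, was high throughout, at 13.86 in GMP and 13.59 in MDP against 12.82, 13.26, 13.20 and 13.71 in SMP (difference -0.47, limma adjusted p = 0.393). When all its probe sets were averaged, Myb was called lower (-1.87, adjusted p = 0.0046).

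Most cytokine, chemokine and immediate-early genes rose, and so did 5 lipid mediator enzymes. Of 19 cytokine and chemokine genes, 13 were called higher and 0 lower, with a median of 4.30. Of 18 immediate-early and stress genes, 15 were called higher and 0 lower, with a median of 5.06. Of 9 lipid mediator enzymes, 5 were called higher and 1 lower, with a median of 1.58. Osm, oncostatin M, had a value of 5.05 in GMP and 5.62 in MDP, against 13.66, 13.01, 13.26 and 13.56 in SMP (difference 8.04, SE 0.61, limma adjusted p = 2.05e-07). Alox5, the leukotriene-forming 5-lipoxygenase, had 6.00 in GMP and 5.26 in MDP, against 11.29, 11.79, 11.15 and 11.66 (difference 5.85, SE 0.39, limma adjusted p = 5.86e-08). Each SMP array was higher than both early arrays for both. Summed over the list, the log2 level of the immediate-early genes was 12.78 in GMP, 13.19 in MDP, 14.59 to 16.45 in cMoP and 16.98 to 17.35 in SMP. These genes can be induced while cells are isolated, and their part in the other differences was not tested.

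**Figure D5:**
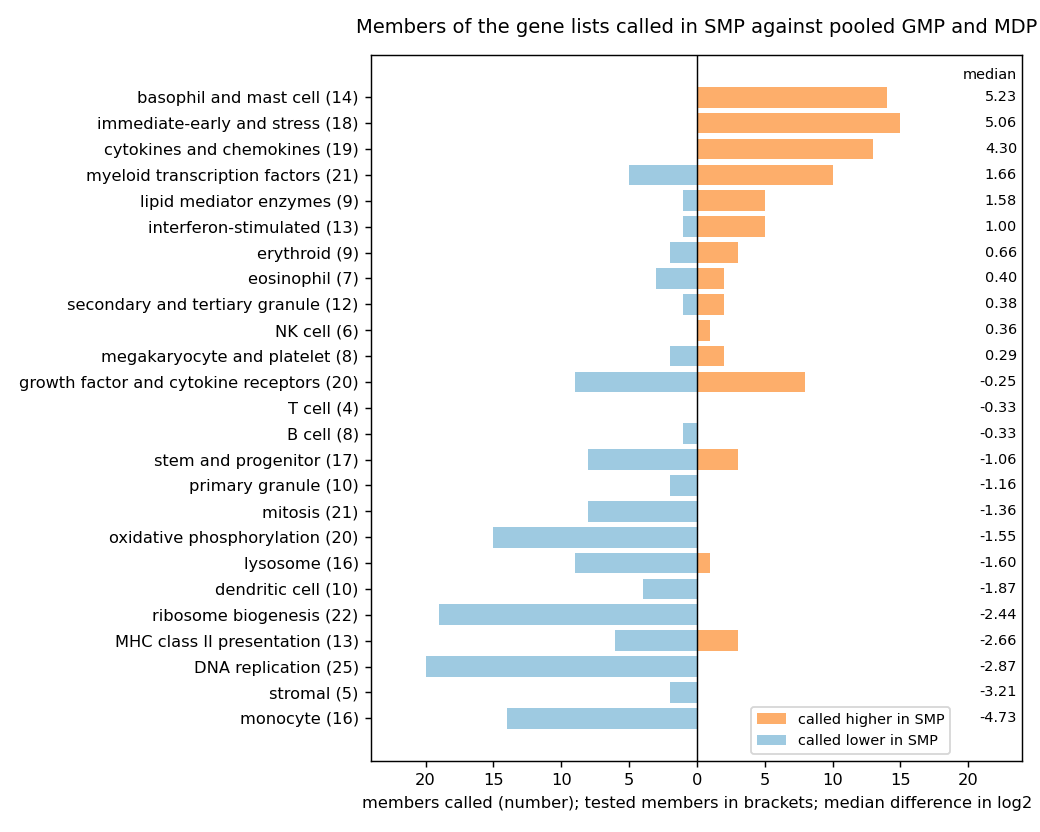
Number of members called higher (right, orange) and lower (left, blue) in SMP than in pooled GMP and MDP for 25 gene lists (vertical axis), with the number tested in brackets and the median log2 difference at the right edge. The basophil and mast cell, immediate-early, and cytokine lists have the highest medians, at 5.23, 5.06 and 4.30, and the monocyte list the lowest, at -4.73.

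Most genes of DNA replication fell. Of 25 DNA replication genes, 20 were called lower and 0 higher in SMP (median -2.87). Gins1, a subunit of the replicative helicase, had a value of 10.76 in GMP and 10.73 in MDP, against 7.37, 4.88, 6.60 and 4.90 in SMP (difference -4.81, SE 0.67, limma adjusted p = 6.56e-05). Of 21 mitosis genes, 8 were called lower and 0 higher (median -1.36), and 2 were called lower without the MDP array. Aurka, a mitotic spindle kinase, had 7.32 in GMP and 8.31 in MDP, against 5.41, 3.54, 4.70 and 5.96 (difference -2.91, SE 0.62, limma adjusted p = 0.00176). Both early arrays were above all 4 SMP arrays for both genes.

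Of 22 ribosome biogenesis genes, 19 were called lower and 0 higher (median -2.44), and of 20 oxidative phosphorylation genes, 15 were called lower and 0 higher (median -1.55). Nolc1, a nucleolar phosphoprotein, had a value of 10.87 in GMP and 9.67 in MDP, against 7.20, 6.49, 3.77 and 4.19 in SMP (difference -4.86, SE 0.81, limma adjusted p = 0.000292). The WT-titled arrays were the lowest. Cycs, cytochrome c, had 11.85 in GMP and 11.02 in MDP, against 8.85, 9.19, 7.45 and 8.52 (difference -2.93, limma adjusted p = 0.000357). Of 16 lysosome genes, 9 were called lower and 1 higher (median -1.60), with 5 lower without the MDP array. Hexa, a lysosomal hexosaminidase, fell by 2.95 and Ctsz, cathepsin Z, by 2.77.

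Lists of other lineages that a sort could hold also had members called, and their counts stand beside 11.1% higher and 23.8% lower among all genes tested. Erythroid genes were called higher in 3 and lower in 2 of 9 tested (median 0.66), megakaryocyte and platelet genes in 2 and 2 of 8 (median 0.29), and NK cell genes in 1 and 0 of 6 (median 0.36). B cell genes were called lower in 1 of 8 (median -0.33), T cell genes in 0 of 4 (median -0.33) and stromal genes in 2 of 5 (median -3.21). Interferon-stimulated genes were called higher in 5 and lower in 1 of 13 (median 1.0), led by Rsad2, the antiviral protein viperin, which rose by 4.71. Without the GMP array 2 of the interferon-stimulated genes were called higher. An unadjusted limma p under 0.05 was reached by 5652 of the 12077 genes tested, in either direction. At that limit 2 of 4 T cell genes were lower in SMP. Of 6 NK cell genes, 2 were higher and 1 lower, and of 10 primary granule genes, 1 was higher and 3 lower. At that limit 0 genes were lower in the basophil, cytokine and immediate-early lists, and 0 were higher in the monocyte, dendritic cell, B cell, T cell, stromal, DNA replication, mitosis, ribosome biogenesis and oxidative phosphorylation lists.

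Each early array was then compared with SMP alone, in fits that assume that a lone array varies like the other groups. Against GMP, 1152 genes (9.54%) were called higher and 2354 (19.5%) lower in SMP. Against MDP, 992 (8.21%) were called higher and 1890 (15.6%) lower. These comparisons share the 4 SMP arrays. Called in both were 845 genes higher and 1496 lower. Gata2 was 5.06 higher in SMP than in GMP and 5.85 higher than in MDP, Mcpt8 2.73 and 2.54 higher.

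GMP and MDP themselves had no replicates and were not tested against each other. Of 18193 genes, 38 were higher in GMP by at least 3 on the log2 scale and 111 higher in MDP (0.819% in all). Rnase2a, of the eosinophil-associated ribonuclease family, Itgax, the integrin CD11c, and Dntt, the terminal transferase of lymphoid progenitors, were among those higher in MDP. Rnase2a averaged 2.3, the floor, in Eosinophils and 8.18 in cMoP. Dntt had a value of 4.52 in GMP and 11.42 in MDP, and Itgax 2.46 and 8.61. Among those higher in GMP were Tlr4, with 7.72 against 4.09, Grb10, with 9.42 against 5.36, and Tfr2, the second transferrin receptor, with 7.36 against 2.72. Genes of other cell types also differed. The plasma cell genes Igha and Jchain had 12.65 and 10.28 in MDP and 5.45 and 4.24 in GMP, and the collagen gene Col1a1 had 9.74 in MDP and was at the floor in GMP. SMP_2 also held Jchain at 9.23, against 3.26, 4.21 and 3.0 in the other SMP arrays. The part of such cells in the differences was not tested.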

How the data were processed

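RNA of the sorted cells was hybridised to Affymetrix arrays and the series value table was used as deposited by the authors, in log2 units, with the summarisation and normalisation not given in the sources used here. The base was judged from the range of the values. Of 45101 probe sets, 34945 named 1 gene in GEO's platform annotation; the probe set with the highest mean over 35 arrays stood for its gene. Genes above the array median in at least 2 of 20 arrays were tested with limma 3.58.1 (R 4.3.3; lmFit, eBayes with trend), in which GMP and MDP formed 1 of the cell types. The fit used 20 arrays and had 12 residual degrees of freedom (11 with GMP and MDP apart), and p-values were adjusted by Benjamini-Hochberg over all 12077 genes. The fit was tested on simulated data. GMP and MDP have 1 array each, and precision is limited by how few arrays there are. The members and gene lists were chosen with earlier results of these data known. Genes in the text are the 4 markers, the 10 largest non-overlapping rises and falls, up to 4 called members of each list, fixed lineage regulators, leading SMP genes of each class, and the 10 genes that differed most each way between GMP and MDP. Genes named outside this rule, such as Hdc, Epx, Mpo, Ctsg, Ngp, Camp, Ccr2, Csf2rb2, Runx1, Myb, H2-Oa and H2-Ob, were chosen after their values were seen. Promoter windows came from RefSeq. Alternatives were quantile normalisation, other filters and probe set rules, other spread estimates, a term for WT-titled arrays, subsets of arrays, each array left out, and other limits for a call or for on.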

Additional observations from a re-analysis of the deposited data

Results flagged for a closer look

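Single SMP arrays stood apart from the other 3 for 17 of the 113 genes named, by a gap to the nearest of them that, as a share of the range of the 4, was above Dixon's critical value. For normally spread values chance gives such a gap in about 1 in 20 groups of 4. That rate does not hold where the other arrays sit at or near the floor, as for Cnn3, Il5ra and Prg3. SMP_WT_1 was the high array, with 10.11 for Camp against 6.25 to 6.76 in the others, 14.14 for Cebpa against 13.32 to 13.40, 7.54 for Cnn3 against the floor of 2.30, 6.45 for Dntt against at most 2.35, 4.73 for Elane and 4.42 for S100a4 against at most 2.61, and 3.68 for Csf3r against at most 2.71. It was also low for Slc18a2, at 9.89 against 11.28 to 11.51.

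SMP_2 was the low array for Ccl4 at 12.08 against 13.37 to 13.58, for Egr3 at 6.92 against 11.87 to 12.85, for Runx1 at 12.22 against 12.55 to 12.60 and for Il6ra at 2.55 against 3.79 to 3.87. It was the high one for Ly86 at 4.58 against 2.59 to 2.69 and for Il5ra at 3.89, where the others were at the floor. SMP_1 was low for Csf2rb2 at 13 against 13.56 to 13.65 and high for Prg3 at 3.93. SMP_WT_2 was low for Gfi1b at 6.88 against 7.68 to 7.79. For Cebpa and Egr3 all 4 SMP arrays were above both GMP and MDP, and for Ly86 and Elane all 4 were below both.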

How the results depend on the processing

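The pooled comparison called 4226 genes, and between 2890 and 4523 when single arrays were left out, with 1892 (without the GMP array) to 3090 (without SMP_2) lower in SMP, against 2880 with all arrays. A fit of the 6 arrays alone called 2489 genes, 1581 of them lower. The count of SMP genes moved with its limits. It was 163 with on at 6, 186 with the numbered arrays alone and 171 with the WT-titled arrays alone. Of these, 18, 14 and 10 were on in both early arrays, 33, 32 and 29 in either, and 104, 109 and 93 off in both. With on at 8, 2 were on in both, 7 in either and 38 off in both. The cause of these shifts was not tested beyond what the limits and the fewer arrays fix by construction. Quantile normalisation took the median difference of all genes from -0.18 to -0.07, and over all settings of the pooled fit it lay between -0.36 and 0.0. Of 99 genes named and called, 85 kept their call under all 17 alternatives to the pooled fit, 14 lost it under at least 1, and 0 turned direction. No paired analysis was possible because the GMP and MDP arrays carry no replicate number, so the groups compared share none. Values near the floor limit how far a fall can be measured.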

Other observations

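The 29 SMP genes that were neither on in an early array nor off in both had at least 1 early array between the limits of 5 and 7. Since the SMP arrays chose them, their values are a description with no test. Cyp11a1, the enzyme that starts steroid synthesis, had a value of 5.65 in GMP and 5.07 in MDP, against 12.04, 11.95, 12.25 and 12.14 in SMP, with a Basophils mean of 11.63. Itga2b, the integrin chain of platelets and early progenitors, had 6.25 in GMP and 3.68 in MDP, against 11.15, 11.30, 10.95 and 10.92. Gzmb, granzyme B, had 5.26 in GMP and 2.30, the floor, in MDP, against 10.67, 8.29, 10.94 and 11.60. F2r, a thrombin receptor, had 6.53 in GMP and 5.05 in MDP, against 9.62, 11.62, 10.97 and 10.89. For these 4 genes GMP was the higher of the early arrays and every SMP array was above both. These 4 genes were chosen after their values were seen.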
